A study of Mus musculus with 30 samples.

Results

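The mitochondrial genome of the mouse is a small DNA circle that is copied and transcribed inside the organelle. All genes whose name in the count table begins with mt- were taken: 37 of 48440 genes, of which 13 encode messenger RNAs (mRNAs), 2 ribosomal RNAs (rRNAs) and 22 transfer RNAs (tRNAs). Their reads were followed in liver RNA of C57BL/6J mice, all wild-type females. Each received an ALZET osmotic pump at the age of 8 weeks. The pump held ACBP/DBI, the acyl-CoA-binding protein, at 2.5 mg/mL or phosphate-buffered saline (PBS). Anorexia was induced 72 hours later by CDDP (cisplatin, which forms crosslinks in DNA) or 48 hours later by CRS. The labels spell out no meaning of CRS, which is taken here to be restraint stress. The 6 groups of 5 libraries were CDDP+ACBP, CDDP, CRS+ACBP, CRS, ACBP (labelled Rec-ACBP) and PBS. Every pump held ACBP/DBI or PBS, so CDDP and CRS mice are taken to have carried PBS. No group ate less without a drug or stress, so CDDP and reduced feeding cannot be told apart. The labels do not say that the libraries of a group came from separate animals, so p-values measure the spread between libraries.

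Both strands of the circle are transcribed into long precursors. The tRNA sequences lie between most of the other genes, and cutting them out releases the mRNAs and rRNAs. A poly(A) tail is then added to most of these. The mRNAs encode core subunits of respiratory complexes I, III and IV and of ATP synthase, and the rRNAs build the mitochondrial ribosome. Hepatocytes are rich in mitochondria, and these few genes usually take a large part of liver RNA reads.

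The ends of 4 mRNAs are printed first. Those of mt-Nd1 and mt-Co1 are shown because their shares of the mitochondrial mRNA reads did not overlap between CDDP and PBS livers, that of mt-Nd6 because it is the only mRNA of the light-strand precursor, and that of mt-Cytb because its stop codon is only begun in the DNA and is completed by the poly(A) tail. Each line gives the last 24 bases of the gene, 5′ to 3′, from GENCODE vM21 transcripts on build mm10. Capitals mark the encoded part of the last codon.
mt-Nd1: gcgggagtaccaccatacataTAG
mt-Co1: ccaacctatgtaaaagtaaaaTAA
mt-Nd6: attatcgagattactcgagatTAA
mt-Cytb: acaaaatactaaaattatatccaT

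Parts of the circle also exist as insertions in nuclear chromosomes. A search of all GENCODE vM21 transcripts found near-identical copies (at least 99% identity over at least 100 bases) of 7 of the 13 mRNA genes, and all 7 copies lie side by side on the minus strand of chromosome 1, between 24611535 and 24616197 (mm10). The first 60 bases of mt-Nd3 and of its copy Gm28438 are shown because reads of the pair can hardly be assigned. They hold the only difference in 345 aligned bases, in capitals. Another copy of mt-Co1 on chromosome 2, Gm13340, is shown over 60 bases for contrast, with both differing bases of that stretch in capitals.
mt-Nd3: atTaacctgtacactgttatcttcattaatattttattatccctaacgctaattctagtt
Gm28438: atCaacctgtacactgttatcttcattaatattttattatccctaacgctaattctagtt
mt-Co1: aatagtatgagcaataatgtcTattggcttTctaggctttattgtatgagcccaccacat
Gm13340: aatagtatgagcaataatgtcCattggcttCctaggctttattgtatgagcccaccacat

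Mitochondrial genes took a smaller part of the reads in CDDP livers than in every other group. In the CDDP libraries they held 3.81, 2.74, 3.67, 3.62 and 3.38% of the reads counted on genes, against 13.5, 10.2, 9.24, 11.2 and 13.1% in the PBS libraries. The groups did not overlap, and the mean was 3.44% ± 0.423 in CDDP and 11.5% ± 1.85 in PBS (SD, n = 5 each), a ratio of 0.300. The sums of the 3 classes moved by nearly the same factor: the ratio of CDDP to PBS was 0.300 for mRNAs, 0.305 for rRNAs and 0.288 for tRNAs. The tRNA sum rests on light-strand genes, which held 99.04% of tRNA reads. Log2 fold changes of the 8 tested tRNA genes ranged from -2.94 to 0.05. With 13957380 to 18479134 reads on genes per library, the widest 95% Wilson interval of a class share spanned 0.0398 percentage points, so counting error was small beside the spread between libraries. Such intervals cover counting error only. In bulk liver RNA, fewer mitochondria-rich cells and less mitochondrial RNA per cell cannot be told apart.

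The ACBP pump went with a larger mitochondrial part in CDDP livers. The CDDP+ACBP libraries held 5.43, 7.64, 12.6, 11.9 and 8.32%, all above the 5 CDDP libraries, and averaged 2.67 times the CDDP mean. Under the same pump without cisplatin, the ACBP libraries held 10.6, 8.37, 9.88, 11.7 and 8.30%. The CDDP+ACBP and ACBP values overlapped, and their means stood at a ratio of 0.940. The CRS+ACBP libraries held 6.28, 6.58, 7.84, 4.73 and 15.3%, against 8.96, 9.94, 6.95, 17.4 and 9.02% in CRS. The ranges of these groups overlapped with each other and with that of PBS, and 1 library of each lay far above the rest. Against the PBS range of 9.24 to 13.5%, CRS+ACBP replicates 1 to 4 lay below and replicate 5 above. CRS replicates 1, 3 and 5 lay below that range, replicate 2 within it and replicate 4 above it. CRS+ACBP and PBS were not compared by a test.

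**Figure D1:**
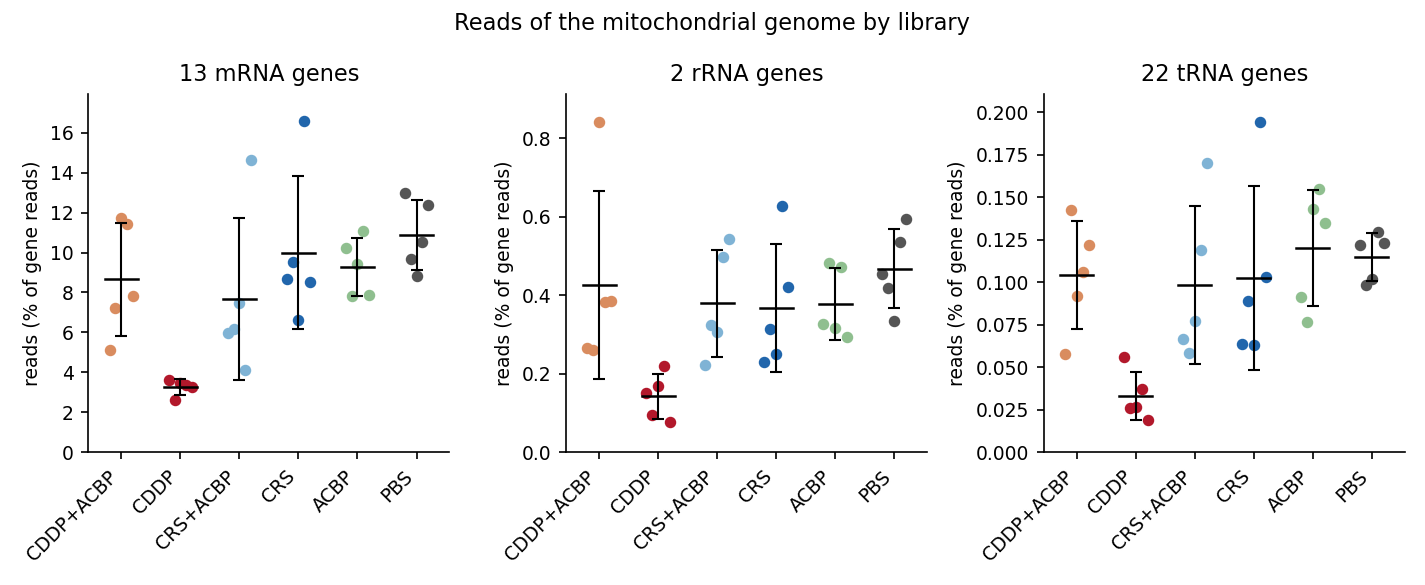
Reads on the 13 mRNA, 2 rRNA and 22 tRNA genes of the mitochondrial genome as percent of gene reads in each library (points), with the group mean and SD (black). The mRNA share of the CDDP libraries lies between 2.62 and 3.60%, below every library of the other groups, where the lowest is 4.12%.

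Each gene was tested in 1 edgeR quasi-likelihood fit of all 16304 genes that passed the filter on low counts, with Benjamini-Hochberg adjustment over all of them. That filter kept 22 of the 37 mitochondrial genes: 12 mRNAs, both rRNAs and 8 tRNAs. Of these 22, 20 were called lower in CDDP than in PBS at an adjusted p under 0.05, and 0 higher. Over all genes tested, 18.1% were called lower and 23% higher. The median log2 fold change of the 22 was -1.61, beside 0.02 over all genes. The libraries of CDDP lay wholly below those of PBS for 18 of the 22, and for 11.9% of all genes, while 0 lay wholly above, beside 10.3% of all genes.

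Complex I (NADH dehydrogenase) passes electrons from NADH into the chain, and 7 of its subunits are encoded here. mt-Nd1 held 0.610, 0.624, 0.740, 0.699 and 0.615% of gene reads in CDDP, against 1.52, 1.17, 1.06, 1.37 and 1.53% in PBS. Its log2 fold change, -0.91 ± 0.23 (SE; edgeR adjusted p = 0.00202), was the smallest among the 12 mRNAs. mt-Nd2 held 0.374, 0.361, 0.413, 0.447 and 0.446% in CDDP, against 1.53, 1.33, 1.13, 1.45 and 1.70% in PBS, a log2 fold change of -1.68 ± 0.26. For both genes all 5 CDDP libraries lay below all 5 PBS libraries. The subunit genes mt-Nd4 (-1.57 ± 0.32), mt-Nd5 (-1.39 ± 0.29) and mt-Nd3 (-1.42 ± 0.40) also fell. mt-Nd4l, with 0 to 76 reads per library, had a log2 fold change of -2.23 ± 0.64, and of -3.41 without CDDP replicate 4, the CDDP library with most of its reads. mt-Nd6, the only mRNA of the light-strand precursor, fell by 1.14 ± 0.27 on the log2 scale (edgeR adjusted p = 0.00116).

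mt-Cytb encodes cytochrome b, the membrane core of complex III. It held 0.754, 0.497, 0.641, 0.647 and 0.788% of gene reads in CDDP and 2.95, 2.12, 1.84, 2.12 and 2.68% in PBS, with no overlap and a log2 fold change of -1.68 ± 0.30 (edgeR adjusted p = 6.43e-05).

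Complex IV (cytochrome c oxidase) hands the electrons to oxygen, and mt-Co1 encodes its catalytic subunit. Among the mRNAs as counted, mt-Co1 had the most reads in PBS livers, where reads shared with nuclear copies are missing from several genes. It held 1.03, 0.571, 1.03, 0.882 and 0.602% of gene reads in CDDP, against 4.296, 3.117, 3.055, 3.590 and 3.901% in PBS. The highest CDDP library thus lay far below the lowest PBS library, with a log2 fold change of -2.05 ± 0.32 (edgeR adjusted p = 1.48e-05). Among the mRNAs only mt-Nd4l had a lower log2 fold change. mt-Co2, the subunit that receives electrons from cytochrome c, fell by 1.64 ± 0.27 and mt-Co3, a structural subunit, by 1.73 ± 0.40 on the log2 scale. Of the ATP synthase subunits, mt-Atp6, part of the proton channel, fell by 1.80 ± 0.39. mt-Atp8 could not be tested: it had at most 17 reads in a library and 0 in 9 libraries.

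The rRNAs followed the mRNAs. mt-Rnr1, the small-subunit rRNA, held 0.0744, 0.0502, 0.0825, 0.110 and 0.0278% of gene reads in CDDP and 0.248, 0.220, 0.175, 0.275 and 0.303% in PBS. The fall of 1.80 ± 0.29 on the log2 scale had an edgeR adjusted p of 2.10e-05. mt-Rnr2, the large-subunit rRNA, fell by 1.55 ± 0.32. Set against the mitochondrial mRNA reads of the same library, rRNA reads amounted to 4.21, 3.67, 4.85, 6.54 and 2.35% in CDDP and 3.50, 4.33, 3.80, 5.09 and 4.80% in PBS. This ratio, which does not depend on how libraries are scaled, overlapped between the groups and differed by -0.06 on the log2 scale (2-sided exact permutation test, n = 5 each, p = 0.818, adjusted p = 0.880 over 14 tests). The libraries were made for mRNA, so these reads give no amount of mature rRNA or tRNA.

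**Figure D2:**
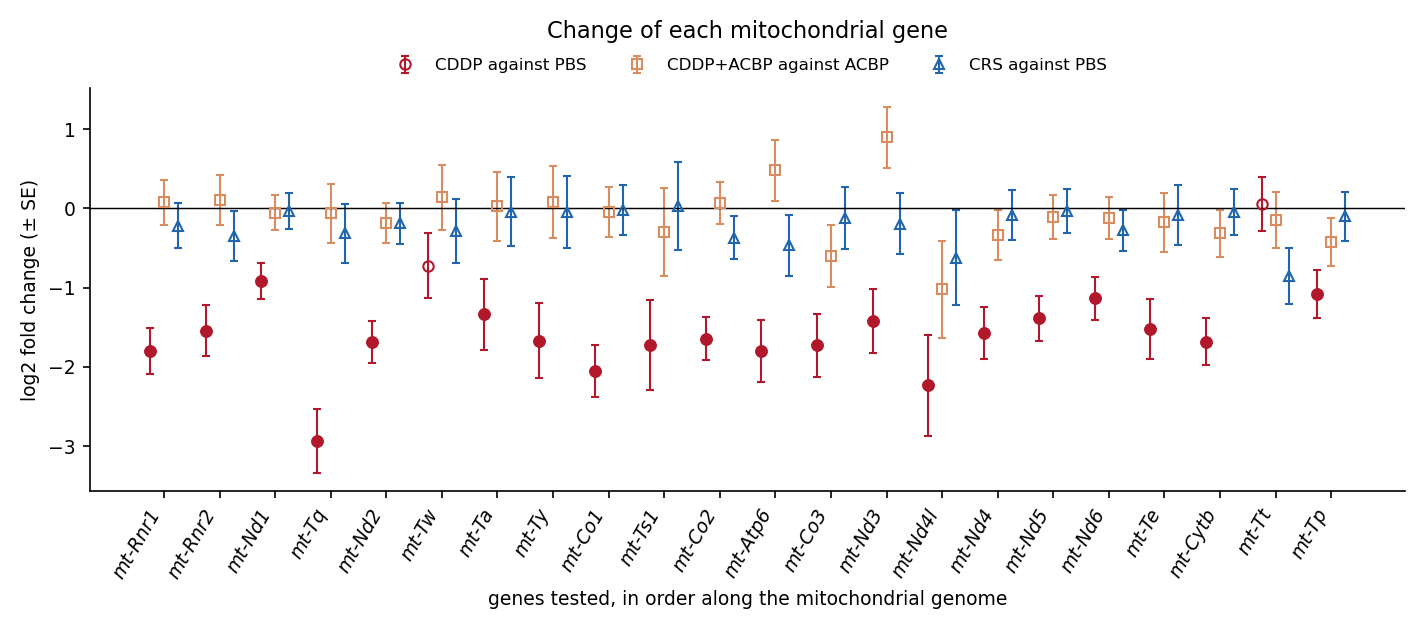
Log2 fold change with its SE for the 22 tested genes, in their order along the mitochondrial genome, for CDDP against PBS, CDDP+ACBP against ACBP and CRS against PBS (filled symbols: edgeR adjusted p under 0.05). In CDDP against PBS 20 of the 22 are filled and lie between -0.91 and -2.94, while none is filled in the other comparisons.

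The tRNA genes were covered very unevenly. Genes of the light-strand precursor, 8 in number, held 99.04% of all tRNA reads (461118 reads over the 30 libraries), while the 14 genes of the heavy-strand precursor held 4465, and 6 of those had 0 reads in every library. mt-Tq and mt-Ti overlap by their ends on opposite strands, at chrM:3772-3842 and chrM:3706-3774 (mm10). They had 106847 and 45 reads. Both genes are printed whole because neighbours of similar length, 71 and 69 bases, differed so far.
mt-Tq: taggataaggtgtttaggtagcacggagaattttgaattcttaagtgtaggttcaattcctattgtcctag
mt-Ti: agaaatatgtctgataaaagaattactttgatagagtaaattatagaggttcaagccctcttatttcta
The strand setting of the authors' counting is not given in the sources used here. Reads of light-strand genes, mt-Nd6 included, therefore cannot be told apart from reads antisense to the heavy-strand genes around them, or from uncut precursors. Reads that lie on more than 1 gene are listed apart as ambiguous, 613151 to 951409 per library. mt-Ti shares its first bases with the end of mt-Nd1 (chrM:2751-3707) on the same strand. The part of ambiguous reads in the uneven tRNA counts was not tested.

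Of the 8 tested tRNA genes, mt-Tq (glutamine), mt-Ta (alanine), mt-Ty (tyrosine), mt-Ts1 (serine), mt-Te (glutamate) and mt-Tp (proline) were called lower in CDDP than in PBS. mt-Tq had the lowest log2 fold change of the 22 genes, -2.94 ± 0.40 (edgeR adjusted p = 3.07e-06). It had 58.2, 13.3, 73.0, 58.5 and 6.78 CPM (counts scaled to the gene reads of the library) in CDDP and 267, 288, 409, 317 and 294 in PBS, so the groups were far apart. mt-Ts1 had 332, 92.3, 70.3, 123 and 27.1 CPM in CDDP and 522, 339, 298, 556 and 435 in PBS. CDDP replicate 1 lay among the PBS values of mt-Ts1, and the log2 fold change was -1.73 ± 0.57 with it and -2.43 without it. mt-Tw (tryptophan), at -0.72 ± 0.41, and mt-Tt (threonine), at 0.05 ± 0.35, did not pass the test. Both belong to the heavy-strand precursor, while the tRNA genes called lower all belong to the light-strand precursor. mt-Ta was not called without CDDP replicate 2 or 4.

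The make-up of the mitochondrial mRNA reads also differed in CDDP, and shares of these reads again do not depend on scaling. In every library, 7 mRNAs (mt-Nd1, mt-Nd2, mt-Co1, mt-Nd4, mt-Nd5, mt-Nd6 and mt-Cytb) held 98.04 to 99.6% of those reads. mt-Nd1 made up 16.95, 23.84, 21.32, 20.78 and 18.75% in CDDP, against 11.70, 12.04, 12.07, 13.04 and 12.35% in PBS. mt-Co1 made up 28.6, 21.8, 29.6, 26.2 and 18.3% in CDDP, against 33.1, 32.2, 34.7, 34.1 and 31.5% in PBS. So every CDDP library had a larger part of mt-Nd1 and a smaller part of mt-Co1 than every PBS library. With ACBP the values lay near those of PBS: in CDDP+ACBP mt-Nd1 made up 13.7% ± 1.70, against 20.3% ± 2.62 in CDDP, and mt-Co1 34.4% ± 2.24, against 24.9% ± 4.75 in CDDP (SD, n = 5 each), without overlap for either gene. The shares of mt-Nd2, mt-Nd4, mt-Nd5 and mt-Cytb overlapped between CDDP and PBS. Shares were described and not tested, and since they add up to a whole, a lower share of mt-Co1 raises the others.

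**Figure D3:**
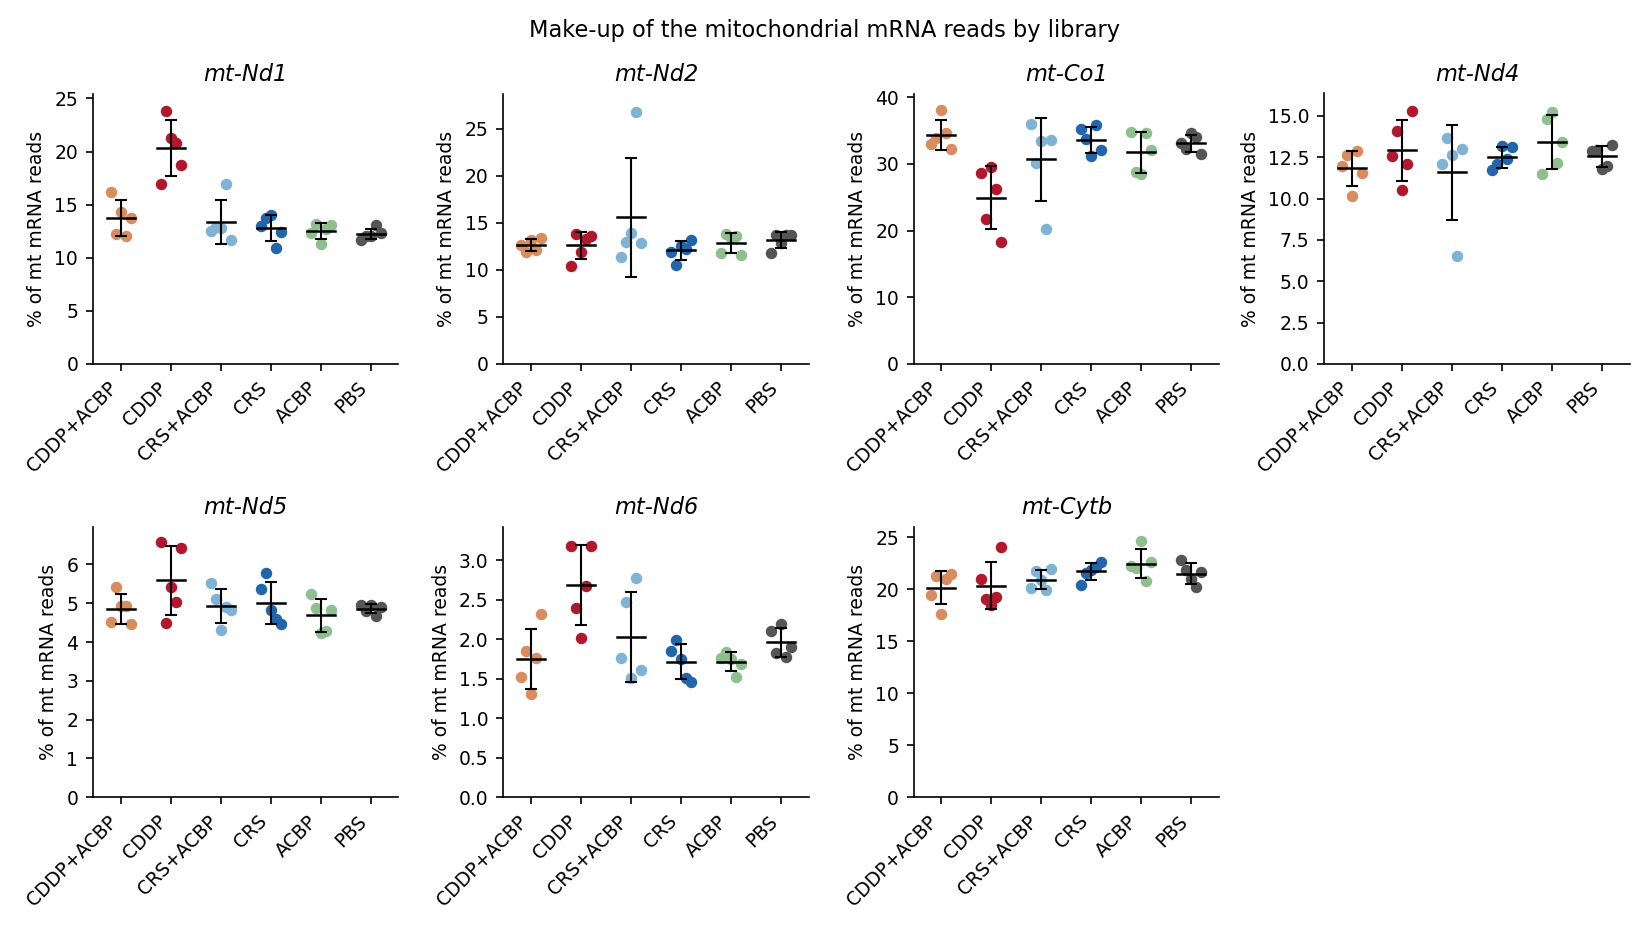
Share of the mitochondrial mRNA reads taken by each of the 7 abundant mRNAs in each library (points), with the group mean and SD (black). mt-Nd1 lies between 16.95 and 23.84% in CDDP and between 11.70 and 13.04% in PBS, and 1 library of CRS+ACBP stands apart for mt-Nd1, mt-Nd2, mt-Co1 and mt-Nd4.

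mt-Nd6 comes from the opposite precursor, so its ratio to the other mRNAs was taken to set the light strand against the heavy strand. As the strand setting is unknown, mt-Nd6 reads cannot be told apart from antisense reads, so the ratio may not compare the strands. mt-Nd6 reads amounted to 3.28, 2.45, 2.06, 2.74 and 3.29% of those of the other mRNAs in CDDP. In PBS they amounted to 2.15, 1.86, 2.24, 1.80 and 1.94%. CDDP replicate 3 lay within the PBS range and the other 4 above it. The difference was 0.45 on the log2 scale (2-sided exact permutation test, n = 5 each, p = 0.0238, adjusted p = 0.148 over 14 tests), and 5 against 5 libraries cannot give a p below 0.00794. In CDDP+ACBP the ratio was 1.55, 1.88, 1.33, 1.79 and 2.38%, which is -0.64 on the log2 scale against CDDP (exact permutation p = 0.0159, adjusted p = 0.148). After adjustment neither difference passed, nor did any other of the 14.

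Levels per kilobase of gene, given as RPKM (CPM divided by the length of the gene in kilobases), put the mRNAs on 1 scale. In PBS the order was mt-Co1 (23248 ± 3401), mt-Cytb (20495 ± 4003), mt-Nd1 (13898 ± 2189), mt-Nd2 (13746 ± 2059), mt-Nd4 (9964 ± 1984), mt-Nd6 (4102 ± 782) and mt-Nd5 (2899 ± 501), each with SD over 5 libraries. The ranges of mt-Co1 and mt-Cytb overlapped, as did those of mt-Nd1, mt-Nd2 and mt-Nd4 from one to the next, and those of mt-Nd6 and mt-Nd5. In CDDP the highest mean level was that of mt-Nd1 (6873 ± 612), ahead of mt-Cytb (5817 ± 996) and mt-Co1 (5325 ± 1452), with ranges that overlapped. The rRNAs had 722 ± 328 (mt-Rnr1) and 466 ± 169 (mt-Rnr2) in CDDP, against 2556 ± 520 and 1415 ± 330 in PBS.

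The remaining 6 mRNAs were far lower. mt-Co2 had 494 ± 106, mt-Atp6 240 ± 126, mt-Co3 215 ± 84.3, mt-Nd3 71.4 ± 21.1, mt-Nd4l 11.6 ± 4.57 and mt-Atp8 0.490 ± 0.599 RPKM in PBS. All of these but mt-Atp8 are covered over at least 98.99% of their length by a near-identical nuclear copy, as are 483 of 1545 bases of mt-Co1 and 876 of 1378 bases of mt-Nd4. Reads that fit more than 1 place are listed apart in the table and not on a gene. Those reads made up 6.22 to 7.32% in CDDP, against 11.3 to 12.3% in PBS. The levels of these genes are therefore not those of their transcripts, which the table cannot give. For mt-Atp8, between mt-Co2 and mt-Atp6, the search found no annotated copy.

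The copies carried reads too. The mt-Co2 copy Gm28661 had 106 ± 32.4 CPM in CDDP and 307 ± 63.7 in PBS, beside 104 ± 34.6 and 338 ± 72.6 for mt-Co2 itself. The copy thus had about as many reads as the gene in both groups. With the reads of the copies added to their genes, mt-Co2 (-1.55 on the log2 scale), mt-Atp6 (-1.99), mt-Co3 (-1.45) and mt-Nd4l (-2.65) were still called lower in CDDP than in PBS. mt-Nd3 was not (-2.04, edgeR adjusted p = 0.0888), and its copy Gm28438 ranged from 3.73 to 78.9 CPM in CDDP and from 12.1 to 337 in PBS.

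**Figure D4:**
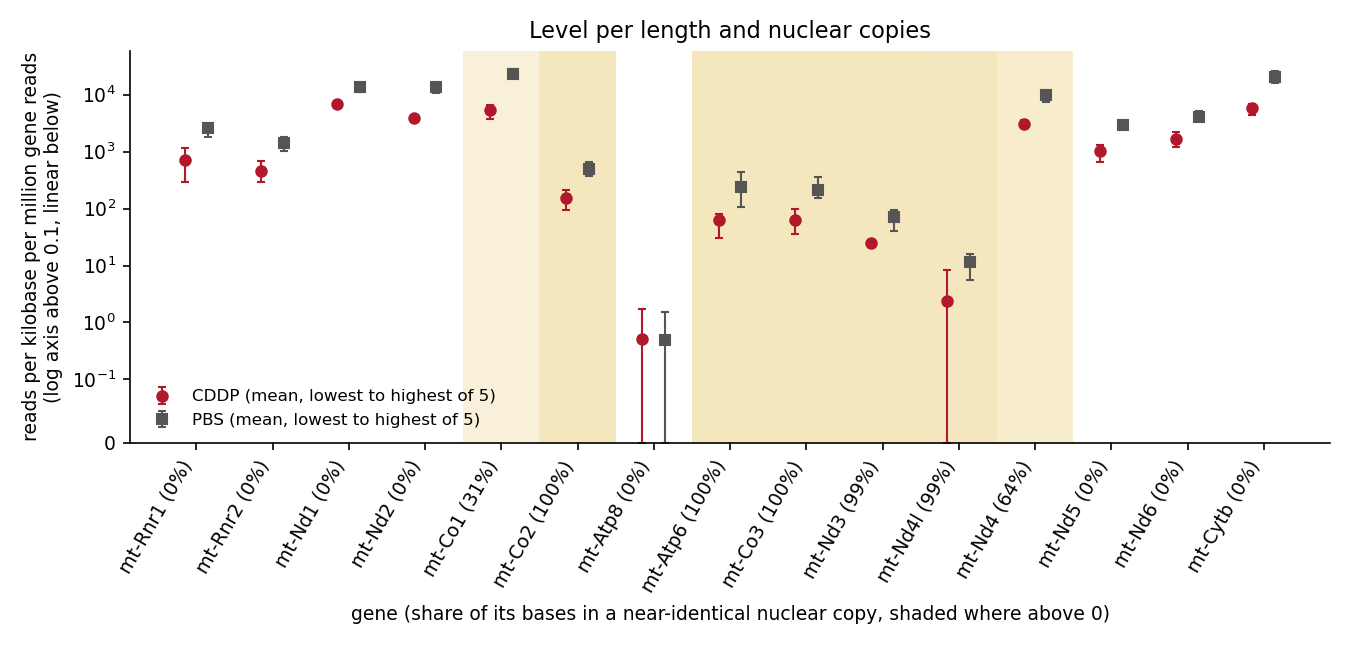
Level of the mRNA and rRNA genes in RPKM, for CDDP and PBS (mean, with lines from the lowest to the highest of 5 libraries; log axis, linear below 0.1). Shading and the percentage beside each name give the part of the gene found in a near-identical nuclear copy, and the 5 genes covered almost whole lie below 700 in every PBS and CDDP library.

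The question of the ACBP pump within the cisplatin model was asked directly. Of the 22 genes, 16 were called higher in CDDP+ACBP than in CDDP and 0 lower, with a median log2 fold change of 1.23 beside -0.01 over all genes. Over all genes tested, 14.9% were called higher and 18.8% lower. mt-Co1 held 1.69, 2.45, 4.45, 3.96 and 2.52% of gene reads in CDDP+ACBP, all above the CDDP libraries given before, and rose by 1.75 ± 0.32 on the log2 scale (edgeR adjusted p = 0.000152). mt-Rnr1 rose by 1.63 ± 0.29, mt-Nd2 by 1.25 ± 0.26, mt-Cytb by 1.21 ± 0.30 and mt-Nd1 by 0.67 ± 0.23. mt-Tq had 180, 160, 238, 247 and 270 CPM in CDDP+ACBP and rose by 2.38 ± 0.39. For 13 of the 22 genes all CDDP+ACBP libraries lay above all CDDP libraries, and for 6.74% of all genes, while for 0 they lay wholly below, beside 5.8% of all genes. The call of mt-Nd1 did not hold without CDDP+ACBP replicate 3 or 4, and those of mt-Ty and mt-Te did not hold without several single libraries of either group.

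The size of the mt-Nd3 change rested largely on 1 library, though all CDDP+ACBP libraries lay above all CDDP libraries. mt-Nd3 held 0.00141, 0.00207, 0.00274, 0.00201 and 0.0109% of gene reads in CDDP+ACBP, against 0.000949, 0.000909, 0.000809, 0.000813 and 0.000808% in CDDP. Its log2 fold change of 2.10 ± 0.41 became 1.06 without CDDP+ACBP replicate 5. With the reads of its copy added it was 1.26 and no longer called (edgeR adjusted p = 0.312). mt-Nd6 (0.60 ± 0.26, edgeR adjusted p = 0.0779), mt-Nd4l, mt-Ta, mt-Tp, mt-Tt and mt-Tw did not pass.

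The effect of cisplatin under the ACBP pump was then set against its effect under the PBS pump. Against ACBP, 0 of the 22 genes were called in CDDP+ACBP in either direction, with log2 fold changes from -1.02 to 0.89 and a median of -0.08. Over all genes, 0.0613% were called in each direction by edgeR, and 777 genes had an unadjusted p under 0.05. mt-Co1 differed by -0.04 ± 0.31 and mt-Nd1 by -0.05 ± 0.23 on the log2 scale. The difference between both cisplatin effects (interaction term of the same fit) was called for 10 of the 22 genes, each with a higher value under ACBP, and for 8.36% of all genes in that direction and 11.3% in the other. These 10 were mt-Rnr1, mt-Rnr2, mt-Tq, mt-Nd2, mt-Co1, mt-Co2, mt-Atp6, mt-Nd3, mt-Nd5 and mt-Cytb. The call of mt-Nd3 was lost with the reads of its copy added (edgeR adjusted p = 0.244). Those of mt-Nd5 and mt-Cytb were lost without the libraries richest in muscle or nerve transcripts (adjusted p = 0.0709 and 0.0661) and without those with most unaligned reads (adjusted p = 0.0924 and 0.0757). Without CDDP replicate 5, whose TMM scaling factor of 0.7009 lay outside the range of 0.9205 to 1.186 of the other 29 libraries, the number was 17. mt-Co1 had an interaction of 2.01 ± 0.45 on the log2 scale (edgeR adjusted p = 0.00258), and mt-Nd1 one of 0.86 ± 0.32 that did not pass (adjusted p = 0.0554). These comparisons share libraries with each other.

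CRS and the ACBP pump without cisplatin gave no call among the 22 genes. For CRS against PBS the median log2 fold change was -0.16, with mt-Co1 at -0.02 ± 0.31. Over all genes, edgeR called 0.117% higher and 0.0245% lower, and 1432 genes (8.78%) had an unadjusted p under 0.05. For ACBP against PBS the median was -0.30 and edgeR called 0% of all genes, with 700 (4.29%) at an unadjusted p under 0.05. For CRS+ACBP the medians were -0.15 against CRS and -0.13 against ACBP, with 0% called in both. There, 453 genes (2.78%) and 1173 genes (7.2%) had an unadjusted p under 0.05. The interaction of CRS and ACBP also gave 0%, with 378 genes (2.32%) at an unadjusted p under 0.05. For 0 of the 22 genes did the groups separate fully in any of these pairs or in CDDP+ACBP against ACBP. Over all genes, 1.76% lay wholly higher and 2.88% wholly lower in CRS than in PBS, 0.877% and 0.889% in ACBP than in PBS, and 0.288% and 0.613% in CRS+ACBP than in CRS. The same shares were 0.313% and 1.82% in CRS+ACBP against ACBP and 0.478% and 0.711% in CDDP+ACBP against ACBP. With an SE of 0.31 for mt-Co1, changes of moderate size could have been missed. CDDP against CRS repeated the pattern of CDDP against PBS: 20 of 22 genes were lower, where 15.1% of all genes were, and for 14 of the 22 the groups did not overlap, beside 8.18% of all genes in that direction. For 0 of the 22 did CDDP lie wholly above CRS, beside 10.1% of all genes. mt-Tt was called higher (0.91 ± 0.35, edgeR adjusted p = 0.0447), where 19.4% of all genes were, and this fell to 0.39 without CDDP replicate 5.

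Mitochondrial DNA is copied and transcribed by proteins of nuclear genes, so lists of these genes were set beside the mitochondrial ones. Of 51 genes for transcription, processing, stability and copying, 11 were called higher and 9 lower in CDDP than in PBS, with a median log2 fold change of 0.10. These counts are close to the shares over all genes tested, of which 23% were higher and 18.1% lower. Tfam, which packages the DNA and starts transcription, had 28.8, 27.8, 33.5, 40.4 and 13.6 CPM in CDDP and 26.9, 34.8, 32.3, 27.1 and 30.7 in PBS, a log2 fold change of -0.04 ± 0.15. Polrmt, the mitochondrial RNA polymerase, had 22.6, 21.9, 26.3, 31.4 and 27 in CDDP and 47.3, 30.9, 32.1, 38.7 and 44.0 in PBS and fell by 0.47 ± 0.16 on the log2 scale (edgeR adjusted p = 0.0223). Lrpprc, which with Slirp stabilises the mRNAs, fell by 0.38 ± 0.15 (edgeR adjusted p = 0.0392), while Slirp rose by 0.38 ± 0.13 (adjusted p = 0.0157). The calls of Polrmt, Lrpprc and Slirp did not hold under several alternatives of the fit.

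Other genes of that list changed more. Mterf4, needed with Nsun4 to assemble the mitochondrial ribosome, had 23.5, 12.2, 21.7, 20.2 and 8.87 CPM in CDDP and 56.1, 36.8, 45.4, 39.2 and 52.3 in PBS, without overlap, and fell by 1.37 ± 0.18 (edgeR adjusted p = 1.41e-06). In CDDP+ACBP it had 34.2, 41.0, 62.3, 46.3 and 36.2 and stood 1.25 ± 0.18 above CDDP. In CDDP these genes that act on RNA rose: Pde12, which removes poly(A) tails in mitochondria, by 1.24 ± 0.23, Rexo2, which degrades short RNA fragments, by 1.05 ± 0.21, and Nsun2, an RNA methyltransferase, by 1.07 ± 0.14. The poly(A) polymerase Mtpap (0.33 ± 0.18), the nuclease Pnpt1 (-0.40 ± 0.16, edgeR adjusted p = 0.0505), Tfb2m (0.28 ± 0.16), the DNA polymerase Polg (0.18 ± 0.17) and the helicase Twnk (-0.11 ± 0.17) did not pass.

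Of 12 regulators of mitochondrial biogenesis, 2 rose and 2 fell in CDDP, with a median log2 fold change of -0.11, beside 23% and 18.1% of all genes. The coactivator Ppargc1a had 20.3, 57.8, 32.2, 38.9 and 59.4 CPM in CDDP and 12.3, 15.3, 20.3, 10.7 and 10.4 in PBS, and rose by 1.76 ± 0.35 (edgeR adjusted p = 0.00023). Its relative Ppargc1b had 1.30, 2.44, 2.44, 1.23 and 4.07 in CDDP and 9.33, 8.05, 11.8, 4.46 and 7.26 in PBS, and fell by 1.64 ± 0.35 (adjusted p = 0.000395). The pair thus moved in opposite directions, and the libraries overlapped for neither gene but for a tie of 20.3 in Ppargc1a. Esrra, a nuclear receptor that works with both, fell by 0.51 ± 0.16 and Yy1, a transcription factor, rose by 0.46 ± 0.15, while Nrf1 (0.16 ± 0.19) did not pass. The Yy1 call was lost with limma voom (0.22 on the log2 scale, adjusted p = 0.181), with only the groups compared (adjusted p = 0.0779) and without the libraries richest in muscle or nerve transcripts (adjusted p = 0.0631).

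Nuclear genes also encode subunits of the respiratory chain, complex II included, and of ATP synthase. Of 77 such genes 21 were called higher and 12 lower in CDDP, near the 23% and 18.1% over all genes, with a median log2 fold change of 0.04 beside 0.02 over all genes. Their summed level was 17510 ± 1954 CPM in CDDP and 16160 ± 1595 in PBS (SD, n = 5 each). Cox7a2l rose by 1.93 ± 0.33, and Uqcr10 of complex III by 1.03 ± 0.19. The complex I subunits Ndufs8 and Ndufb4 fell by 0.91 ± 0.18 and 0.74 ± 0.13. Of 24 other mitochondrial proteins (matrix enzymes, carriers and membrane proteins), 11 rose and 2 fell, beside 23% and 18.1% of all genes, with a median of 0.40. Tomm20, a receptor for protein import, rose by 2.02 ± 0.27 and the chaperone Hspa9 by 1.61 ± 0.26, while citrate synthase Cs, often used as a measure of mitochondrial mass, had -0.09 ± 0.21 and did not pass. In CDDP+ACBP against ACBP, 0 genes of the 4 lists were called by edgeR.

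**Figure D5:**
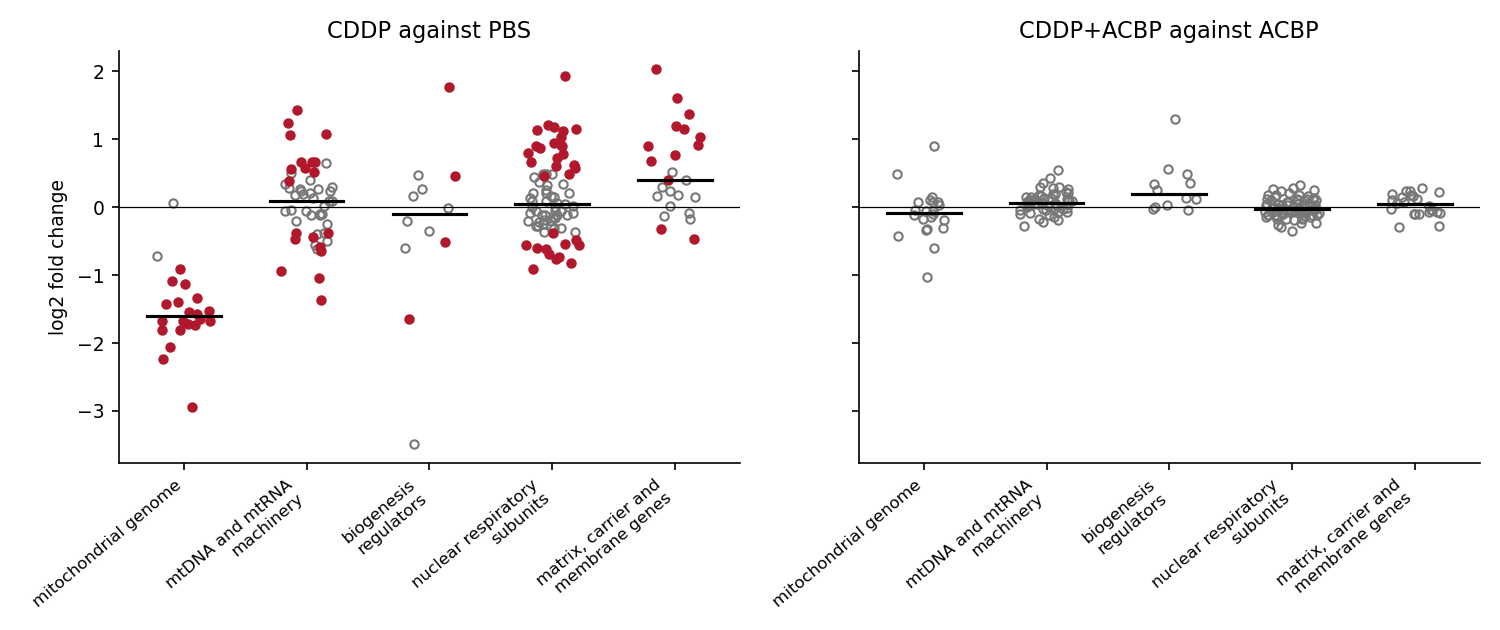
Log2 fold changes of the 22 mitochondrial genes and of 4 lists of nuclear genes, in CDDP against PBS (left) and CDDP+ACBP against ACBP (right); filled points have an edgeR adjusted p under 0.05 and bars are medians. The median of the mitochondrial genome is -1.61 on the left, where those of the lists lie between -0.11 and 0.40, and no point is filled on the right.

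Markers of cells and of drug exposure moved with the groups. Cdkn1a, a p53 target picked with its values known, had 159, 403, 225, 352 and 319 CPM in CDDP and 0.726 to 6.76 in PBS, but 66.4, 40.1, 62.6, 5.35 and 15.2 in CDDP+ACBP. So CDDP+ACBP livers differed from CDDP livers in this marker as well as in mitochondrial RNA. CDDP+ACBP replicate 4, at 5.35 CPM, lay within the PBS range of Cdkn1a, and exposure to the drug was not tested. Over all genes tested 23% were called higher and 18.1% lower in CDDP than in PBS, against which the marker counts are to be read. Hepatocyte markers (10 genes, 3 called higher and 3 lower in CDDP than in PBS) summed to 94310 to 112300 CPM in CDDP and 96270 to 120400 in PBS. Red cell markers summed to 5.37 to 9.66 in CDDP and 255 to 497 in PBS (0 higher and 5 lower of 6 tested), and lymphocyte markers to 1.30 to 6.28 and 13.8 to 22.5 (0 higher and 8 lower of 10). Kupffer cell markers (1 higher and 6 lower of 10) summed to 175 to 302 in CDDP and 355 to 431 in PBS, and endothelial markers (1 and 4 of 8) to 108 to 246 and 237 to 317. Skeletal muscle markers (0 called of 14) ranged from 16.4 to 676 in CDDP and from 21.9 to 11670 in PBS. Without the 7 libraries richest in muscle or nerve transcripts, 20 of the 22 genes were again lower in CDDP than in PBS and 16 higher in CDDP+ACBP than in CDDP. The markers moved between CDDP+ACBP and CDDP as well, where 14.9% of all genes were called higher and 18.8% lower. Red cell markers summed to 197 to 1284 CPM in CDDP+ACBP, against 5.37 to 9.66 in CDDP (6 higher and 0 lower of 6), and lymphocyte markers to 11.1 to 28.99 in CDDP+ACBP, against 1.30 to 6.28 in CDDP (8 higher and 0 lower of 10). Kupffer cell markers summed to 216 to 277 in CDDP+ACBP, against 175 to 302 in CDDP (2 higher and 1 lower of 10), and endothelial markers to 198 to 395, against 108 to 246 (3 higher and 1 lower of 8). Hepatocyte markers summed to 64500 to 115100 in CDDP+ACBP, against 94310 to 112300 in CDDP (3 higher and 3 lower of 10). Against ACBP, 5 of the 10 Kupffer cell markers were called lower in CDDP+ACBP and 0 higher, where 0.0613% of all genes were called in each direction. Their sum in ACBP was 383 to 463 CPM. Of the other marker lists 0 genes were called there. Without the libraries richest in muscle or nerve transcripts, 0 genes of any kind were called lower in that comparison. The part of red cell, lymphocyte, Kupffer and endothelial RNA in the mitochondrial values was not tested.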

How the data were processed

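Per the labels, mRNA libraries described as strand-specific were made from 1.5 µg of total RNA of liver. The submitters' processing notes name HISAT2 2.2.1, HTSeq 2.0.3 and mm10. What the authors deposited is 1 table of raw counts for all samples, without normalization. No source used here gives the annotation release or the strand setting. Of the gene identifiers, 99.2% matched GENCODE vM21, which gave coordinates, symbols and transcripts. Over the libraries the median share of reads on genes was 38.0%, that of reads on no gene 43.4% and that of multiply aligned reads 11.0%. The 5 summary lines of unassigned reads stayed out of library sizes and tests.

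Groups were taken from the treatment label of each sample. Libraries of a group differed by more than sampling noise (smallest chi-square per degree of freedom 22.9), so none was a copy of another. The test was edgeR's robust quasi-likelihood F test (version 4.0.16, R 4.3.3) after filterByExpr and TMM scaling. All 30 libraries entered 1 model, which left 24 residual degrees of freedom, and the code was tested on simulated data. p-values were Benjamini-Hochberg adjusted over 16304 genes within each of 10 comparisons, and called at 0.05. Class shares got no test. Ratios within mitochondrial reads were compared by exact permutation (scipy 1.17.1) and adjusted over 14 tests. Copies were sought with BLAST 2.17.0. Alternatives were RLE size factors, library sizes from nuclear genes, no filter, a filter of 1 CPM in 5 libraries, DESeq2 1.42.0, voom with quality weights of limma 3.58.1, a fit of only the groups compared, other denominators of the shares and ratios, and each library left out. The members, lists and tests were chosen with earlier results of these data known. All mRNA and rRNA genes and each tested tRNA gene are named. Of the nuclear lists, 12 fixed genes and up to 4 called genes with the smallest p per list and comparison could be named, and the text gives some of these. Cdkn1a and the copies were added with values known.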

Additional observations from a re-analysis of the deposited data

Results flagged for a closer look

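Of 78 groups of 5 libraries examined, 6 held a library far from the other 4, where chance gives about 1 in 20. CRS replicate 4 had 17.39% of gene reads on mitochondrial genes, beside 6.951 to 9.935% in the other CRS libraries. CDDP+ACBP replicate 3 had 0.8403% on mitochondrial rRNAs, beside 0.2594 to 0.3865%. The other 4 belong to CRS+ACBP replicate 4. There, rRNA reads amounted to 12.09% of the mitochondrial mRNA reads, beside 3.715 to 5.233%. mt-Nd1 made up 16.99% of the mRNA reads, beside 11.7 to 12.92%, and mt-Nd2 26.76%, beside 11.41 to 13.86%, while mt-Nd4 made up 6.512%, beside 12.11 to 13.68%. That library was also among those with most muscle or nerve transcripts and with most unaligned reads, and the part of either in these values was not tested.

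The change that CDDP brought differed between the ACBP and the PBS pump for 10 genes by the interaction term of the edgeR fit. On the log2 scale the difference was 1.88 for mt-Rnr1, 1.65 for mt-Rnr2, 2.88 for mt-Tq, 1.50 for mt-Nd2, 2.01 for mt-Co1, 1.71 for mt-Co2, 2.28 for mt-Atp6, 2.32 for mt-Nd3, 1.28 for mt-Nd5 and 1.36 for mt-Cytb, each positive. For mt-Rnr1, mt-Rnr2, mt-Co2, mt-Atp6 and mt-Nd3 the change of CDDP+ACBP against ACBP was itself above 0 (0.08, 0.10, 0.07, 0.48 and 0.89), with no call, and for the other 5 it was below 0. For mt-Nd3 the value was 1.28 without CDDP+ACBP replicate 5.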

How the results depend on the processing

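Over the 10 alternative settings, 19 to 21 mitochondrial genes were called lower in CDDP than in PBS, 13 to 16 higher in CDDP+ACBP than in CDDP, 18 to 20 lower in CDDP than in CRS and 8 to 15 higher in the interaction of CDDP and ACBP. Over all genes tested, the calls in the same comparisons and directions numbered 2078 to 3422, 979 to 2870, 1565 to 2837 and 670 to 1754. With each library left out in turn the counts of mitochondrial genes were 19 to 21, 13 to 18, 14 to 20 and 9 to 17. Over all genes, 2560 to 3125 were then called lower in CDDP than in PBS. Of 670 log2 fold changes of called members under the settings, 641 kept their call and 29 lost it, and of 2010 with a library left out 1951 kept it and 59 lost it. None changed sign. The call of mt-Tt in CDDP against CRS, the only 1 of its kind, was lost (0 genes) with RLE size factors, no filter, limma voom, only the groups compared and without either set of doubted libraries, and leaving out single libraries gave 0 to 1. In CRS against PBS, limma voom called 1 mitochondrial gene lower, and edgeR 0. The rRNA ratio of CDDP against PBS was 0.0805 on the log2 scale with mt-Rnr2 alone, against -0.06 with both rRNAs, and ranged from -0.226 to 0.143 with libraries left out. That of CDDP+ACBP against CDDP ranged from -0.013 to 0.356, and the mt-Nd6 ratio of CDDP+ACBP against ACBP from -0.101 to 0.109. None of these differences passed a test, and the cause was not tested.

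Calls over all genes moved more. CRS against PBS, with 19 higher and 4 lower, had 55 and 27 by DESeq2, 506 and 428 by limma voom, 171 and 144 with only the groups compared, and 6 and 1 or 5 and 2 without the doubted libraries. CDDP+ACBP against ACBP, with 10 and 10, had 26 and 65, 20 and 46, 1 and 1, and 0 and 0 or 5 and 1. CDDP+ACBP against CDDP, with 2424 and 3060, had 1502 and 1998 by limma voom and 979 and 1236 with only the groups compared. The lower calls of CDDP against CRS numbered 2460, and 1565 with only the groups compared. The interaction of CDDP and ACBP, with 1363 and 1850, had 774 and 940 or 670 and 955 without the doubted libraries. ACBP against PBS had 7 and 2 by DESeq2 and 2 higher by limma voom. CRS+ACBP had 1 lower call against CRS by each tool, and 8 and 12 (DESeq2) or 4 and 12 (limma voom) against ACBP, and its interaction 2 and 2 by DESeq2, where edgeR gave 0.

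No paired analysis was possible because the labels give running numbers from 1 to 30 and tie no library to one of another group. The library sets doubted for muscle or nerve transcripts or for unaligned reads, and the adding of copy reads, were chosen after seeing the data. Limits are the unknown strand setting, the loss of reads shared with nuclear copies, reads listed as ambiguous where genes overlap, tRNA genes with few reads, and groups of 5.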
